A study of Mus musculus with 8 samples.

Results

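Dio1, the gene for type 1 iodothyronine deiodinase, was followed across liver arrays of wild-type and Abcb4 knockout mice. It is 1 of the 310 genes that could be named on the arrays, and was measured by 1 of 33012 gene probes (probe 472781, design accession NM_007860.1). The gene was chosen for the pattern of its levels across the groups, so those levels and their differences are given as a description without a test. All 8 samples were liver total RNA of male FVB/N mice aged 3 months, in 4 groups of 2 arrays. One group was wild type (WT) and one Abcb4 knockout (KO), both without treatment. In the other groups KO mice received norUDCA, a bile acid with a shortened side chain, for 3 days or for 4 weeks, with no dose or route in the labels. The product of Abcb4 moves phosphatidylcholine from hepatocytes to bile; no named probe measures the gene, so the genotype was not checked. No WT mice given norUDCA were in the study, so a response to the drug is seen in the knockout only. The names of the deposited files for the 4-week group carry a shorter length, given in days, and the label of 4 weeks was used here.

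Deiodinases are selenoenzymes that remove iodine from thyroid hormones. Type 1 deiodinase sits in the plasma membrane of liver, kidney and thyroid cells, converts the prohormone thyroxine to the active triiodothyronine, and also clears reverse triiodothyronine and sulfated hormone. The gene is a classical target of triiodothyronine in the liver, and its expression is known to be low in hypothyroidism, in fasting and in severe illness.

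Dio1 lies on chromosome 4 of the mouse assembly GRCm38.p6, at 107291465 to 107307168 on the minus strand. Its promoter is shown because hepatic Dio1 is known to be governed by nuclear receptors that bind AGGTCA-like half-sites. The 250 bases before the RefSeq start (chr4:107307169-107307418, minus strand, RefSeq, GRCm38.p6) are printed 5′ to 3′, with capitals on the match described next.

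Dio1 promoter: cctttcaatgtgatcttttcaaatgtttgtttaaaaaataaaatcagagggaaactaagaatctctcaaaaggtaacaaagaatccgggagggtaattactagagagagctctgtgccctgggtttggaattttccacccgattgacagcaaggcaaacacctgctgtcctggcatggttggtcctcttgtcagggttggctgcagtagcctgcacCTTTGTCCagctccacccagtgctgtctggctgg

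The letters GGNCAAAG, part of the paired half-sites with a 1-base spacer that HNF4-type receptors bind, were found once. The match lies on the opposite strand at positions -34 to -27 from the start, and its place on the printed strand reads CTTTGTCC. This search was chosen after the sequence had been read. The same letters on either strand were in 4.89% of 32851 RefSeq promoters of the same length. AGGTCA itself, searched on both strands, was not in this window and was in 14.0% of all promoters. Neither TATAAA (12.4% of promoters) nor CCAAT (33.8%) was in it. A match is a description of the letters and no evidence of binding.

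The Dio1 spot was bright on every array and carried no quality flag. Its signal over noise ran from 14.5 to 115.4, against the minimum of 3 used to call a probe detected. The deposited signal was 8511 and 21096 on the WT arrays, and 6191 and 6989 on the KO arrays. It was 1234 and 908 after 3 days of norUDCA, and 1426 and 1404 after 4 weeks. Both WT arrays lay above both KO arrays, and all 4 treated arrays lay below them, before any scaling between arrays. The WT replicates were the least alike as deposited, differing 2.48-fold, against 1.13-fold in KO, 1.36-fold after 3 days and 1.02-fold after 4 weeks.

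After quantile normalization, which gives every array the same distribution of signals, Dio1 had a log2 signal of 14.35 and 14.81 in WT. It was 12.13 and 12.75 in KO, 10.03 and 9.87 after 3 days, and 9.84 and 9.93 after 4 weeks. The group mean was 14.58 ± 0.33 (SD, n = 2) for WT and 12.44 ± 0.44 for KO. The treated groups had means of 9.95 ± 0.12 at 3 days and 9.89 ± 0.07 at 4 weeks. Levels therefore ran in the order WT, KO, then both treated groups, and the treated groups overlapped each other. Normalization narrowed the gap between the WT replicates to 1.38-fold and widened that between the KO replicates to 1.53-fold. Nothing in the labels says that replicates were separate animals, so the SD may in part be technical. In whole liver, fewer cells of a type and less RNA per cell cannot be told apart.

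**Figure D1:**
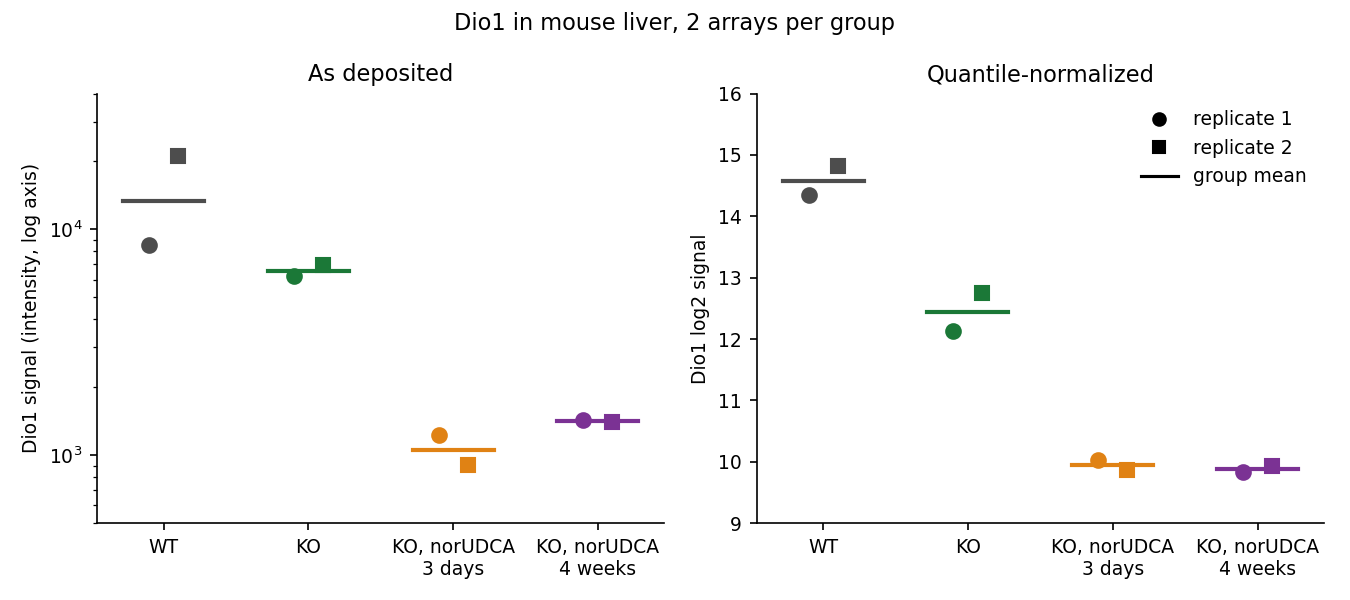
Dio1 signal on each array as deposited (left, log axis) and after quantile normalization (right, log2 signal), with circles for replicate 1, squares for replicate 2 and bars for the group mean (geometric on the left). In both panels the WT arrays are highest, the KO arrays lie between, and the 4 treated arrays are lowest.

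The first comparison asked how untreated knockouts differed from WT. Dio1 was lower by a log2 difference of -2.14 ± 0.29 (SE of the fit), 4.42-fold. The closest pair of arrays, 1 from each group, was 3.04-fold apart. Of the 16728 tested probes, 161 (0.962%) had a still lower difference, and the middle 90% of probes lay between -1.24 and 1.66. Non-overlap alone is common with 2 arrays a group: 20.4% of tested probes had both KO arrays below both WT arrays. Over all tested probes, 1.13% passed an adjusted p of 0.05 in this comparison by limma, a share from which nothing is read about Dio1, as the gene was chosen on these groups.

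The size of this first step depended on how the arrays were scaled, and the WT arrays were dimmer in gene probes and positive control spots. The 75th percentile of gene probe signals was 397 and 644 in WT, and between 945 and 1512 in the knockout groups. Positive control spots had medians of 1691 and 2062 in WT, and between 6104 and 7913 in the knockout groups. Those of the hybridization control spots lay closer together, at 116129 and 137670 in WT and between 134454 and 151305 in the knockout groups. Without any scaling Dio1 differed by -1.03 log2 (2.04-fold), while the median of all tested probes was 1.11 higher in KO. With arrays scaled to the positive control spots it differed by -2.98 (7.92-fold), while the median of tested probes was -0.85. Measured from the median of tested probes, the Dio1 difference was -2.23 after quantile normalization and -2.40 from the assay-normalized signal. It was -2.14 without scaling and with scaling to the control spots. Those settings must share a value, as scaling to the control spots shifts all probes of an array alike. How far the dimmer WT arrays reflect their processing cannot be told apart from genotype.

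**Figure D2:**
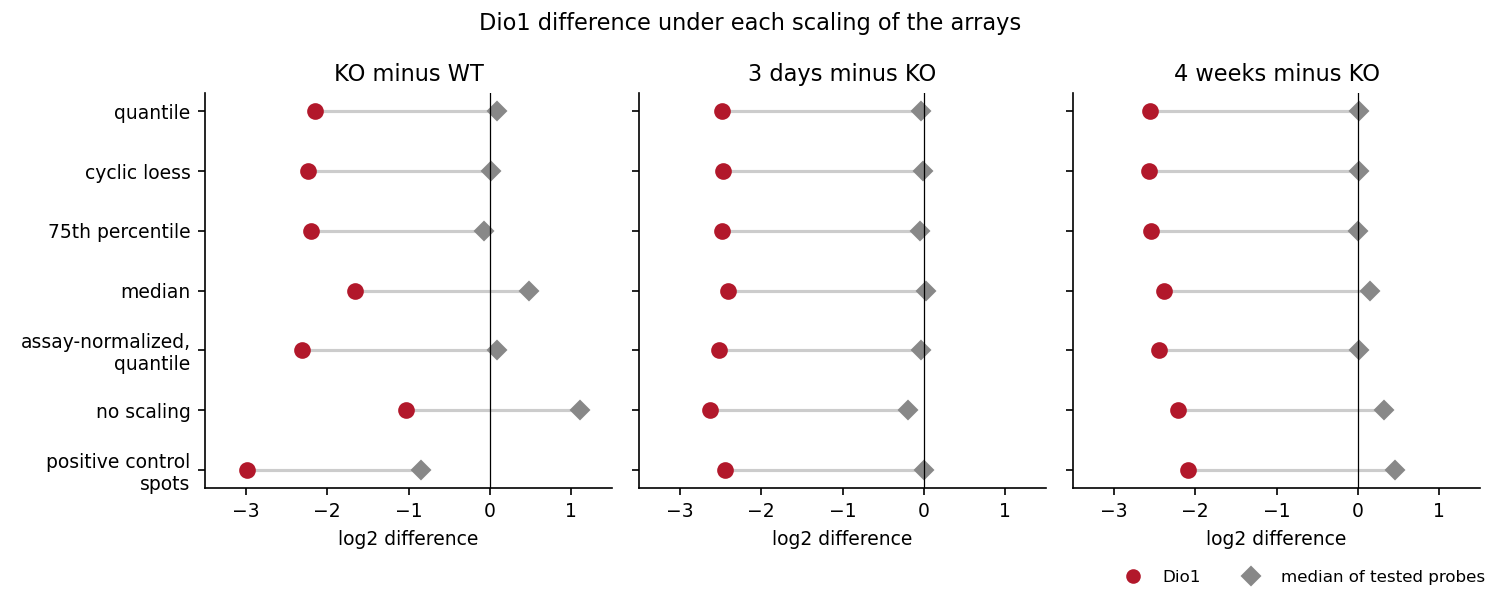
Log2 difference of Dio1 (red circles) and median log2 difference of all tested probes (grey diamonds) under 7 ways of scaling the arrays, for 3 comparisons. For KO minus WT both move together, from -1.03 to -2.98 for Dio1, while the 2 treatment comparisons stay between -2.09 and -2.64.

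The 3-day arrays, set against untreated KO, show Dio1 early in the treatment. Dio1 was lower again, by -2.49 ± 0.29 log2 (SE, 5.61-fold), and the closest arrays of the groups were 4.28-fold apart. Only 38 of the tested probes (0.227%) had a lower difference. Both 3-day arrays lay below both KO arrays, as did those of 28% of tested probes. By limma 0.233% of all tested probes passed in this comparison.

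After 4 weeks the difference from KO was -2.55 ± 0.29 log2 (SE, 5.86-fold), with the closest arrays 4.58-fold apart. It was exceeded by 22 probes (0.132%), while 21.6% of tested probes had both 4-week arrays below both KO arrays. By limma 0.0478% of tested probes passed. Both treatment comparisons use the same KO arrays, so they are not independent of each other. Normalizing the knockout arrays on their own, without the dimmer WT arrays, gave -2.48 after 3 days and -2.54 after 4 weeks.

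**Figure D3:**
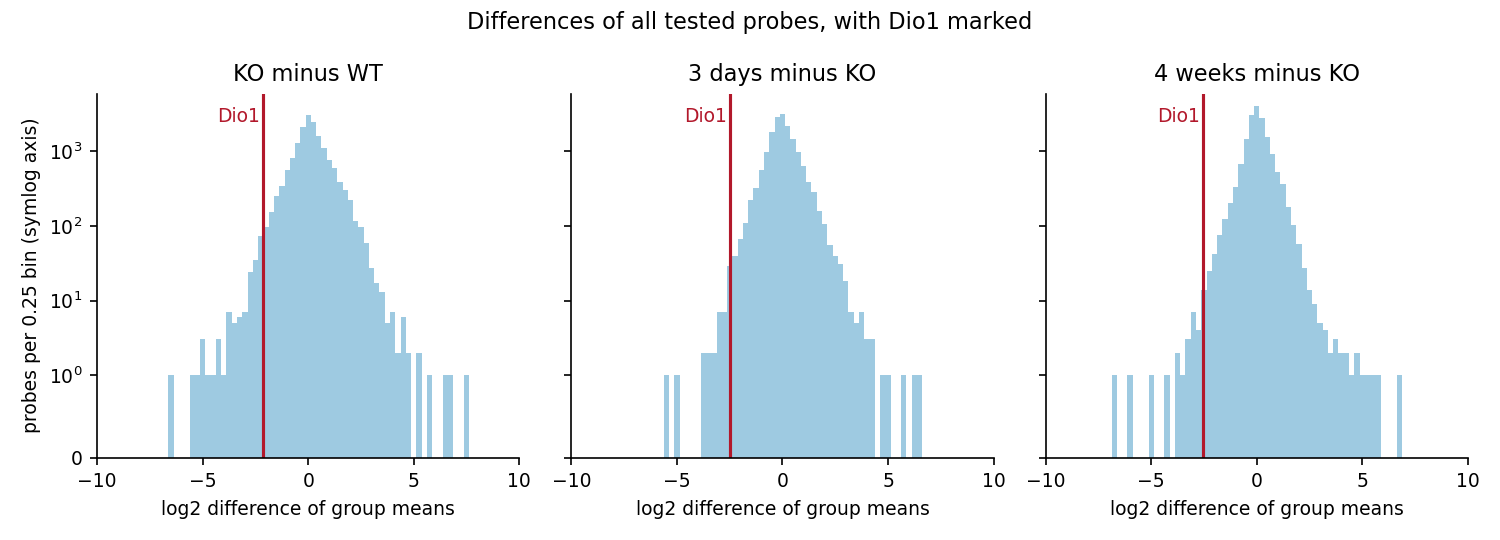
Number of tested probes (symlog axis) by log2 difference of group means in 3 comparisons, in bins of 0.25, with a red line at Dio1. The line stands in the lower tail each time, with 161, 38 and 22 of 16728 probes further out.

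Between the durations, Dio1 showed -0.06 ± 0.29 log2 (SE) for 4 weeks minus 3 days, and the arrays of the groups overlapped, while 20.7% of tested probes had both 4-week arrays below both 3-day arrays. The sign of this small difference turned with the scaling, to 0.02 with arrays set to the same median, 0.07 from the assay-normalized signal, 0.42 without scaling and 0.36 with scaling to the control spots. Measured from the median of tested probes it was -0.10 after quantile normalization and 0.03 from the assay-normalized signal. It was -0.08 with the median, without scaling and with the control spots. Those settings must share a value, as they shift all probes of an array alike. The low level was thus already present on the 3-day arrays. Against WT the treated knockouts were lower by 24.8-fold after 3 days (-4.63 ± 0.29 log2, SE) and 25.9-fold after 4 weeks (-4.70 ± 0.29). Here 11 and 10 tested probes had lower differences. Both treated arrays lay below both WT arrays for 25.7% of tested probes after 3 days and 22.1% after 4 weeks. Without scaling these folds were 12.7 and 9.47, and with scaling to the control spots 43.2 and 33.6. On the log2 scale the step from WT to KO made up 46.3% of the way from WT to 3 days of treatment, and between 28.0% and 55.0% of it across the alternatives.

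A run of levels like that of Dio1, with both WT arrays above both KO arrays and these above all 4 treated arrays, was found in 289 of the tested probes (1.73%). The opposite run was found in 312 (1.87%). With each step also at least 2-fold in the group means, 22 probes ran downward (0.132%) and 33 upward (0.197%). Most probes carry design identifiers without a gene name here, and 163 tested probes had one. Of these, 6 ran downward: Dio1, Hsd3b4, G6pc, Hba-a1, 4930433I11Rik and Teddm1a. Only Dio1 and Hsd3b4 did so with steps of at least 2-fold. The upward run had Plin3, which coats lipid droplets, and Tcte3, a dynein light chain gene. No WT or KO array detected Tcte3, so its order between those groups is one among values below the detection minimum.

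Likeness to Dio1 was measured as the root mean square difference between 2 profiles over the 8 arrays, each taken relative to its own mean, so that 0 stands for the same profile. A flat profile would lie at 1.96 log2 units from Dio1. The nearest probes had no gene name: those with the design identifiers mCG121994.1 and mCG123798.1 lay at 0.59 and 0.61. The former had log2 signals of 12.30 and 11.52 in WT, 10.27 and 9.54 in KO, 7.31 and 8.35 after 3 days, and 7.55 and 7.33 after 4 weeks. Just 8 of the other 16727 tested probes lay within 0.75.

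The nearest gene with a name was 4930433I11Rik at 1.19, with 89 probes nearer. Its log2 signals were 8.47 and 7.94 in WT, 6.67 and 6.90 in KO, 6.35 and 6.28 after 3 days, and 6.05 and 5.95 after 4 weeks. It was detected on 2 of the 8 arrays, so most of its values lie below the detection minimum. The sulfotransferase Sult5a1 followed at 1.24 and was detected on all arrays. It ran from 13.66 and 14.25 in WT through 12.78 and 12.09 in KO and 11.65 and 12.97 after 3 days to 10.12 and 11.07 after 4 weeks. Its KO and 3-day arrays overlapped, unlike those of Dio1.

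G6pc, the phosphatase that releases free glucose from hepatocytes, lay at 1.29. Its log2 signals were 16.15 and 15.76 in WT, 15.50 and 15.35 in KO, 14.69 and 13.92 after 3 days, and 14.59 and 13.94 after 4 weeks. It took the same order of groups as Dio1 in smaller steps. Hba-a1, an alpha globin whose near-identical copy this probe may also measure, lay at 1.32, with WT replicate 1 at 19.04 far above the other 7 arrays (13.63 to 16.17). Fgf21, a hormone of the fasting liver, lay at 1.47, and its shape differed: it was at 12.58 and 9.98 in WT and between 5.14 and 6.98 on the 6 knockout arrays. By this measure, in which the size of the steps counts, the named genes were thus only loosely like Dio1. By Pearson correlation, which leaves step size out, the highest values were 0.94 (4930433I11Rik), 0.92 (Teddm1a), 0.92 (Hsd3b4) and 0.91 (G6pc).

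**Figure D4:**
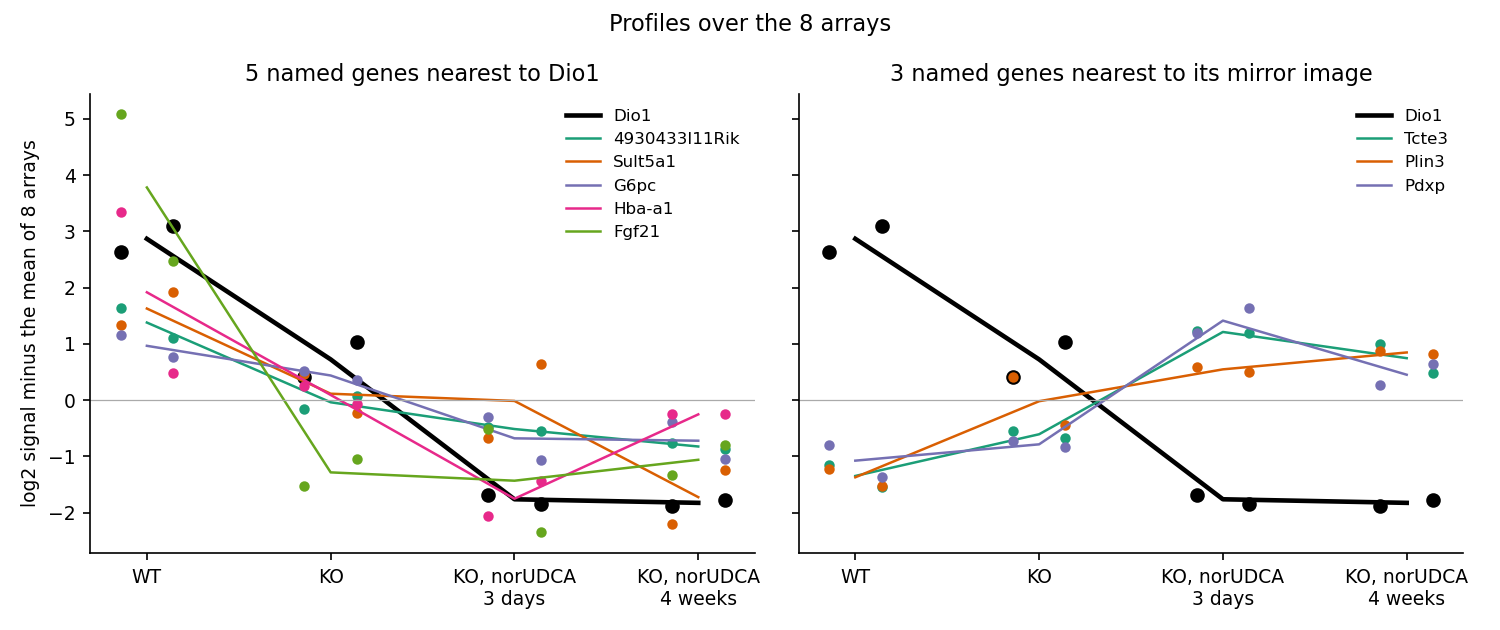
Log2 signal minus the mean of the 8 arrays for Dio1 (black) with the 5 named genes nearest to it (left) and the 3 nearest to its mirror image (right), with a point per array and lines through group means. From KO to the treated groups the Dio1 line drops furthest in the left panel, and Tcte3 and Pdxp lie further above KO at 3 days than Plin3 does in the right panel.

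Turned upside down, the Dio1 profile was nearest to that of Tcte3 (0.99), Plin3 (1.14) and Pdxp, a pyridoxal phosphate phosphatase (1.16). Plin3 was detected on all 8 arrays, at 11.12 and 10.82 in WT, 12.76 and 11.90 in KO, 12.93 and 12.85 after 3 days, and 13.22 and 13.16 after 4 weeks. Tcte3 and Pdxp were each detected on the 4 treated arrays and on none of the WT and KO arrays. Unnamed probes came closer here too, with mCG10040.2 at 0.50 and mCG22172.2 at 0.51. All these genes were picked for their likeness, so their differences are no independent result.

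The wider thyroid hormone system could be seen only in part. Of 179 genes on 6 lists (deiodinases, transport and clearance, hormone-responsive liver genes, selenoproteins, regulators of Dio1, acute phase), 8 had a named probe, Dio1 included. The other 7 genes had 8 probes, all tested. Neither Dio2 nor Dio3, the other deiodinases, is among the named genes, nor is any other selenoprotein of the list, any acute phase gene or a thyroid hormone receptor. They were not analysed here.

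By limma with Benjamini-Hochberg adjustment over all tested probes, 0 of these 8 probes passed in KO minus WT, where 1.13% of all tested probes did. At an unadjusted p under 0.05 there were 4 of 8, and 19.8% of all tested probes. Their median difference was -0.97 log2, beside 0.09 over all tested probes, and 7 of the 8 were lower in KO, as were 43.4% of all tested probes. Of these 8 probes 2 measure the same gene, Cebpb. In both treatment comparisons against KO, again 0 of 8 passed by limma, with 4 of 8 at an unadjusted p under 0.05 each time. At that p there were 2685 (16.1%) and 1464 (8.75%) of all tested probes. The median differences were 0.05 after 3 days and 0.24 after 4 weeks, beside -0.03 and 0.02 over all tested probes. The lowest listed differences were -1.12 (G6pc, 3 days) and -1.84 (Sult5a1, 4 weeks), where Dio1 had -2.49 and -2.55. Between the durations 0 of 8 passed by limma, with 3 at an unadjusted p under 0.05. Of all tested probes 0% passed, with 1499 (8.96%) at an unadjusted p under 0.05.

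Against WT, 1 of the 8 probes passed by limma after 3 days (5.78% of all tested probes did) and 2 after 4 weeks (2.27%). At an unadjusted p under 0.05 there were 4 of 8 after 3 days and 6 of 8 after 4 weeks, beside 26.6% and 21.2% of all tested probes. The median differences of the 8 were -0.31 and -0.76 log2, beside 0.07 and 0.09 over all tested probes. Of the 8, 4 and 7 were lower than in WT, as were 46.4% and 43.4% of all tested probes. Fgf21 was the probe that passed by limma after 3 days, with a log2 difference of -5.22 ± 0.96 (SE, adjusted p = 0.040), and 1 of its 2 treated arrays detected it. After 4 weeks Sult5a1 fell by 3.35 ± 0.56 (SE, adjusted p = 0.048). Aldh3a2, a fatty aldehyde dehydrogenase, rose by 1.23 ± 0.20 (SE, adjusted p = 0.044), so it moved against Dio1. Sult5a1 and Fgf21 are also among the genes named above for their likeness to Dio1. The lists were written with earlier results of these data known, so the p of these genes are no independent support for a change. The Fgf21 call was lost without any 1 array other than WT replicate 2 (adjusted p = 0.059 to 0.17), and that of Sult5a1 without any 1 of the 8 arrays (0.058 to 0.23). The Aldh3a2 call was lost without WT replicate 1 or any 1 of the 4 treated arrays (0.086 to 0.22).

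Of the list of hormone-responsive genes, G6pc showed -0.53 ± 0.36 in KO minus WT, -1.65 ± 0.36 after 3 days against WT and -1.69 ± 0.36 after 4 weeks against WT (log2, SE), and did not pass (adjusted p = 0.47, 0.055 and 0.075, limma). Mup1, a major urinary protein of hepatocytes with many close copies, lay between 19.79 and 20.68 on all 8 arrays. Its WT and KO arrays overlapped, while both 4-week arrays lay below both 3-day arrays, and it passed in no comparison. Among regulators, the 2 probes of Cebpb, a hepatocyte and acute phase transcription factor, showed -1.32 ± 0.27 and -1.39 ± 0.25 in KO minus WT (adjusted p = 0.082 and 0.066). After 3 days against KO they showed 1.45 ± 0.27 and 1.56 ± 0.25 (0.10 and 0.082), the reverse of the sign that Dio1 took. Stat5b, which relays growth hormone signals, showed -0.63 ± 0.32 in KO minus WT (adjusted p = 0.33), -0.12 after 3 days against KO and 0.25 after 4 weeks against KO.

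**Figure D5:**
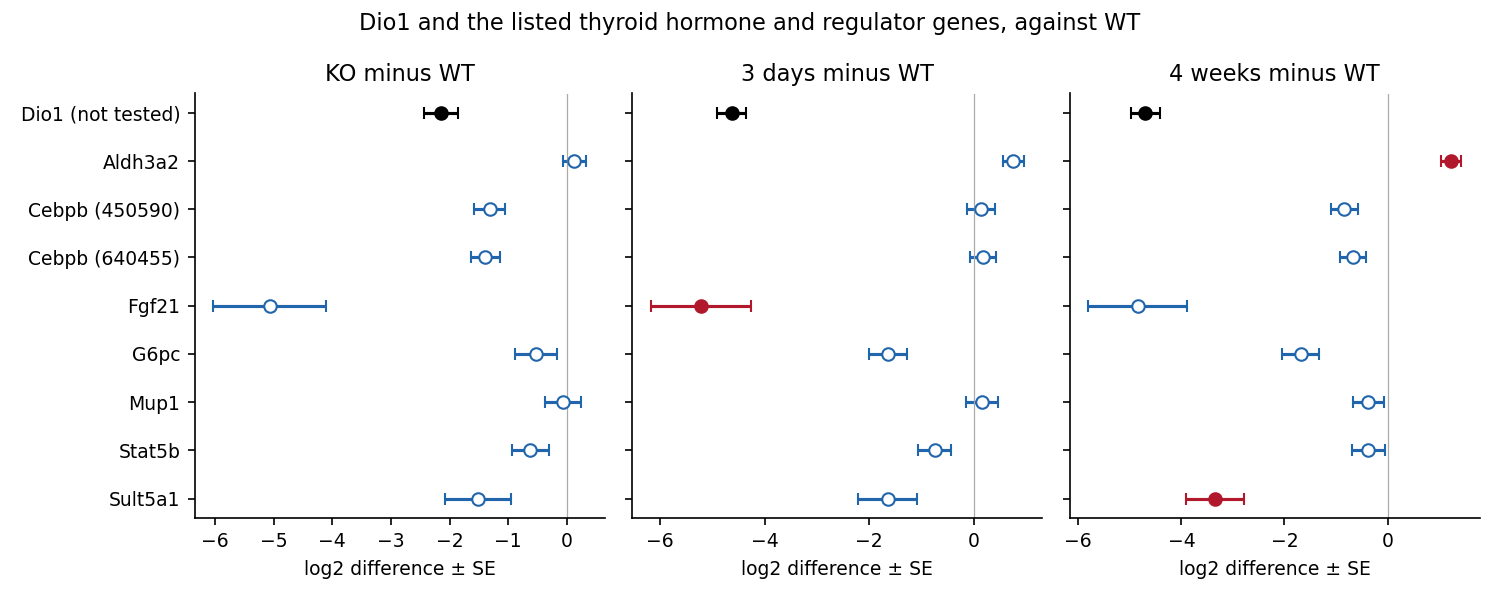
Log2 difference from WT with the SE of the fit for Dio1 (black, not tested) and the 8 probes of the listed genes, in untreated KO and after 3 days or 4 weeks of norUDCA. Filled red points passed an adjusted p of 0.05 (Fgf21 after 3 days, Aldh3a2 and Sult5a1 after 4 weeks), and open blue points did not. No KO array detected Fgf21, and each panel has its own horizontal scale.

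Hepatocytes are the main source of Dio1 in liver, and 3 of 21 listed hepatocyte markers had a named probe. Mup1 and G6pc were detected on all 8 arrays. Hsd3b4, a hydroxysteroid dehydrogenase with close paralogs, had log2 signals of 15.54 and 15.11 in WT and 14.28 and 11.23 in KO. It was at 6.01 and 8.67 after 3 days, when 1 array detected it, and at 5.62 and 6.17 after 4 weeks, when none did. It passed against WT after both durations (adjusted p = 0.027 each, limma). The marker lists were written with earlier results of these data known, so these p are no independent support for a fall. After 4 weeks the measured level of Hsd3b4 was 691-fold lower than in WT. Neither 4-week array detected the probe, so that fold rests on values below the detection minimum and its size is uncertain. Leaving out 1 array ended this call for 5 of 8 arrays after 3 days (adjusted p = 0.068 to 0.10: WT replicate 1 and each treated array) and for 4 of 8 after 4 weeks (0.050 to 0.17: WT replicate 1, 3-day replicate 2 and both 4-week arrays). Of the hepatocyte markers measured, Hsd3b4 and G6pc thus had their groups in the order of Dio1, and Mup1 did not.

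Markers of other cells were measured in part. Of 13 listed cholangiocyte markers 2 had a named probe. Krt23 lay at 6.67 and 6.10 in WT, where no array detected it, at 10.53 and 11.01 in KO, at 10.23 and 8.67 after 3 days and at 7.76 and 7.29 after 4 weeks. Wfdc2 lay at 6.88 and 6.93 in WT, undetected, and between 8.78 and 10.40 on the 6 knockout arrays. Of 11 genes listed for lymphocytes Ccl21a had a probe (6.17 and 7.72 in WT, 9.30 and 10.90 in KO, 7.58 to 9.40 after treatment). Ccl21a encodes a chemokine, so its level is no direct measure of lymphocytes. Of 8 neutrophil markers Bcl2a1b had a probe (9.31 and 7.76 in WT, 9.90 and 10.83 in KO, 9.53 to 10.74 after treatment). Krt23 and Wfdc2 passed the filter on dim probes only through the knockout arrays, so the size of their difference from WT is likewise uncertain. Krt23 was 20.6-fold higher in KO than in WT (adjusted p = 0.035, limma) and 8.26-fold higher after 3 days (0.038). For these folds each WT array was set at the higher of its own signal and the lowest signal of any detected probe. Wfdc2 was 5.21-fold higher than in WT after 3 days (adjusted p = 0.041, limma) and 11.1-fold higher after 4 weeks (0.027), both as measured. Neither gene would have been tested without the knockout arrays, so these p are no independent support for a rise over WT. The first Krt23 call was lost without WT replicate 1, either KO array or either 4-week array (0.055 to 0.14), and the second without any 1 array (0.053 to 0.099). That of Wfdc2 was lost after 3 days without any 1 array outside KO (0.059 to 0.13), and after 4 weeks without WT replicate 1, 3-day replicate 2 or either 4-week array (0.050 to 0.17). All 4 calls were also lost under the 75th percentile, cyclic loess, no filter on dim probes and the replicate block. Krt23 passed in neither comparison of treated with untreated KO (adjusted p = 0.32 and 0.18, limma), and Ccl21a and Bcl2a1b passed in no comparison. The means of these 4 genes were higher in KO than in WT, where that of Dio1 was lower. Krt23 and Ccl21a had lower means than KO after both durations. Wfdc2 (mean 9.69 in KO) was at 9.29 after 3 days and higher than KO after 4 weeks, at 10.38. Bcl2a1b (10.36 in KO) likewise was at 9.59 after 3 days and at 10.63 after 4 weeks. The listed markers of stellate, Kupffer and endothelial cells were not analysed here. The part of other cells in the Dio1 levels was not tested.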

How the data were processed

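Per the labels, digoxigenin-labelled cDNA from liver RNA was hybridised to Applied Biosystems chemiluminescent arrays of 1 colour. The deposited scanner signal is a linear intensity per spot. Its signal over noise was deposited too, as a score with no fixed range. The image software is not given in the sources used here. The deposited series table equalled the assay-normalized intensity (100% of values matched to within 0.06), so it is linear and not centred, with column medians of 1.07 to 1.60. Members and lists were chosen with earlier results of these data known.

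From 33012 gene probes, 4153 were removed because some array gave them a flag of at least 5000. The other 28859 were log2-transformed and quantile-normalized. The 16728 that reached a signal over noise of 3 on 2 or more arrays were tested with limma 3.58.1 in R 4.3.3. The fit used all 8 arrays (4 residual and 1.96 prior degrees of freedom), was two-sided, and adjusted p by Benjamini-Hochberg within each comparison at a threshold of 0.05. It was tested on simulated data. RefSeq accessions and synonyms named 316 probes of 310 genes. Named in the text are Dio1, every listed gene with a probe, the 5 named genes nearest to its profile, 3 nearest to its mirror image, 2 unnamed probes each way, and Teddm1a for its order of groups, chosen after its values were seen. Detected probes made up 33.3% of gene probes on WT replicate 1 and 40.9% to 47.9% on each of the other arrays. Precision is limited by having 2 arrays per group. No slide or scan date is given, so no batch was modelled. Replicate numbers did not pair the samples.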

Additional observations from a re-analysis of the deposited data

Results flagged for a closer look

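Positive control spots, which are not counted among the gene probes, were brighter on the knockout arrays. The lowest of their 6 medians was 2.96 times the highest WT median, over 129 spots per array.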

How the results depend on the processing

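Dio1 stayed lower in the knockout and after both treatments under every alternative run, and no call of a listed gene turned its direction. The Dio1 differences (log2) for KO minus WT, 3 days minus WT and 4 weeks minus WT were -1.66, -4.07 and -4.05 with arrays scaled to the same median, -1.03, -3.66 and -3.24 without scaling, and -2.98, -5.43 and -5.07 with scaling to the positive control spots, an alternative chosen after seeing the data. For 4 weeks minus KO they were -2.22 and -2.09 in the last 2 of these, and for 4 weeks minus 3 days 0.42 and 0.36. Leaving out 1 array gave -2.45 to -1.84 for KO minus WT, -2.80 to -2.18 for 3 days minus KO and -2.87 to -2.24 for 4 weeks minus KO, the extremes without either KO array.

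Counts of passing probes were far less stable. In the order KO minus WT, 3 days minus KO, 4 weeks minus KO, 3 days minus WT and 4 weeks minus WT, 189, 39, 8, 967 and 379 passed. Leaving out 1 array gave 1 to 1084, 0 to 43, 0 to 16, 3 to 1817 and 0 to 1298. Without scaling they were 4581, 137, 56, 3436 and 10505, and over probes detected on all 8 arrays 663, 626, 59, 1783 and 801. Without the filter on dim probes they were 9, 0, 0, 203 and 40. Median scaling gave 303, 90 and 43 for the first 3 and 982 for the last, the 75th percentile 74 and 250 and cyclic loess 62 and 214 for the first and last, the assay-normalized signal 3 and 2 for the treatments against KO, scaling to control spots 3114, 14, 27 and 4662 for the first 4, and the knockout arrays on their own (chosen after seeing the data) 17 for 4 weeks minus KO. Between the durations 0 passed, and 11, 1, 21, 16 and 5 did with the median, the 75th percentile, no scaling, detection on all arrays and the control spots.

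Of the 8 listed probes other than Dio1, the 0 calls in KO minus WT became 1 with median scaling, without scaling and from the assay-normalized signal. In these settings 303, 4581 and 194 of 16728 tested probes passed. The count was 2 of 7 over probes detected on all arrays, where 663 of 9394 tested probes passed. It was 7 of 8 with the control spots, where 3114 of 16728 passed. For 3 days and 4 weeks against KO, 2 and 1 of 7 passed over probes detected on all arrays. There 626 and 59 of 9394 tested probes passed. The 1 call of 3 days minus WT became 2 with the 75th percentile, without scaling and with 16 added to the signal. In these settings 772, 3436 and 1161 of 16728 tested probes passed. It became 2 of 7 over probes detected on all arrays (1783 of 9394 tested probes). It became 5 with the control spots (4662 of 16728) and 0 without the filter (203 of 28859). The 2 calls of 4 weeks minus WT became 0 with the 75th percentile, cyclic loess and no filter. In these settings 250, 214 and 40 of all tested probes passed. Of the 5 named genes most like Dio1, 3 remained over probes detected on all arrays, 2 by Pearson and 2 by Spearman correlation, 1 with knockout arrays alone, and 3 to 5 without 1 array. The marker calls against WT depended on the processing too. The adjusted p (limma) of Krt23 in KO was 0.086 with the 75th percentile, 0.088 with cyclic loess, 0.066 without the filter and 0.072 with the replicate block. In the same order it was 0.11, 0.094, 0.072 and 0.060 for Krt23 after 3 days, 0.11, 0.11, 0.080 and 0.077 for Wfdc2 after 3 days, and 0.061, 0.068, 0.061 and 0.066 for Wfdc2 after 4 weeks. With the control spots the 3-day values were 0.082 for Krt23 and 0.13 for Wfdc2, and from the assay-normalized signal 0.055 for Wfdc2. Hsd3b4 was lost without the filter (0.053 and 0.057 after 3 days and 4 weeks) and with the block (0.060 and 0.066). The cause of these changes was not tested.

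With the replicate number as a block (replicate block), the Dio1 difference for KO minus WT was again -2.14, and 7, 0, 0, 261 and 68 probes passed in the order above, with 0 listed probes for 3 days and 4 weeks minus WT. Deviations of same-numbered arrays correlated at -0.04 to 0.03 between groups, so the numbers were not taken to pair the samples. Dio1 lay far above its noise on all arrays, so none of its values lies below the detection minimum. Other effects of background on its values were not tested.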
